A study of Mus musculus with 24 samples.

Results

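Mucins are long glycoproteins whose serine- and threonine-rich repeats carry dense O-linked sugars, and they make up the mucus that covers the intestinal epithelium. The family has gel-forming members, which goblet cells pack into granules and secrete, and membrane-bound members, which form the glycocalyx on the apical surface of epithelial cells. Muc2 is the gel-forming mucin of the healthy intestine, whereas Muc5ac and Muc6 are the secreted mucins of the stomach surface and glands and Muc5b is a mucin of airways and salivary glands. Muc1, Muc3, Muc4, Muc13 and Muc20 are membrane-bound mucins, of which Muc3 and Muc13 are known as abundant intestinal ones. These 9 genes were chosen by name from a list of secreted and membrane mucins, and all 9 symbols were found among the 45706 Ensembl gene identifiers of the count data.

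RNA had been sequenced from 24 libraries of mouse intestinal organoids, epithelial cultures that had been started from crypts of C57BL/6N mice, either of small intestine (SI) or of colon (COL), to learn what oncogenic BRAF and mutant p53 do to naive epithelium. All organoids carried the Villin::CreERT2 transgene, whose promoter is active in intestinal epithelium, together with a conditional BraffloxV600E/+ allele (called BRAF), a conditional Trp53LSL-R172H/+ allele (p53) or both (BRAFp53). Libraries called off had received ethanol, and libraries called on had received 4-hydroxytamoxifen (4-HT) for 24 h, at 3.5 µM in COL with RNA taken on day 3 and at 0.5 µM in SI with RNA taken on day 8. The 12 groups of tissue, genotype and state had 2 libraries each, and within a tissue all 4 libraries of a genotype go back to a single donor culture, so genotype and donor culture cannot be told apart, and the difference between tissues is also one of dose and day. A p-value for on against off, or for a difference of such responses, therefore measures the spread between libraries within cultures and not between animals. The comparison of off organoids between tissues instead took the 3 cultures of each tissue as replicates.

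COL libraries held 51.2 to 78.2 M counts (M for 1000000) and SI libraries 44.4 to 68.2 M. By these totals 3 counts, taken here as the limit of detection, correspond to 0.0384 to 0.0676 counts per 1000000 (CPM). Levels below are CPM after TMM scaling of the totals, on which 3 counts can lie higher. In 1 SI BRAF on library, 1 count stood at 0.0293 CPM. The summed level of 11 stromal and immune markers was 1.26 to 10.2 CPM over all libraries, with Lum, a fibroblast gene, at 0 in 11 of the 12 groups. One library stood apart. The SI BRAF on replicate 1 had Xist, a transcript of female cells, at 17.1 CPM, against 0.234 to 0.471 CPM in the other 3 libraries of its culture and 115.0 to 166.0 CPM in the SI p53 and BRAFp53 cultures. The SI BRAF results of the 4 abundant mucins and of most gene lists are therefore also given without it. Those of the further mucin-type genes and of the stromal and immune markers are not. Muc6 and Muc20 were not called with or without this library. Ddx3y, a gene of the Y chromosome, was at 45.9 to 64.8 CPM in all COL libraries and 32.8 to 40.3 CPM in SI BRAF, but at 0 to 0.065 CPM in SI p53 and SI BRAFp53, so that the cultures differ in sex. Where SI p53 or SI BRAFp53 is compared with SI BRAF or with COL, sex cannot be told apart from genotype or tissue. The COL BRAF culture had Gata4, a factor of the proximal intestine, at 32.1 to 49.4 CPM in its 4 libraries, against 0.293 to 2.67 CPM in the other COL cultures and 80.1 to 119.0 CPM in SI, an observation made after the values were seen. The label of the mutant p53 allele was checked with Trp53 itself, which edgeR called higher in on than in off organoids of COL p53 (409.0 against 210.0 CPM, adjusted p = 0.0227) and of both BRAFp53 cultures, whereas in SI p53 it stood at 273.0 against 159.0 CPM (adjusted p = 0.194). The Braf count does not separate the alleles.

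The members lie on 4 chromosomes (positions of GENCODE release M21, mm10). The secreted mucins form a group on chromosome 7, with Muc6 (141633456 to 141655319, minus strand), Muc2 (141690340 to 141754693, plus strand), Muc5ac (141788972 to 141819231, plus strand) and Muc5b (141839070 to 141873084, plus strand) separated by 35.0, 34.3 and 19.8 kb. Muc4 (32735886 to 32782391, plus strand) and Muc20 (32777419 to 32797435, minus strand) overlap on chromosome 16 by 627 exon bases on opposite strands, and Muc13 (33794037 to 33819934, plus strand) lies 996.6 kb further on. Muc1 is on chromosome 3 (89229057 to 89233381, plus strand) and Muc3 on chromosome 5 (137134922 to 137149322, minus strand). The identifiers of the 4 abundant members are ENSMUSG00000025515 (Muc2), ENSMUSG00000037390 (Muc3), ENSMUSG00000022824 (Muc13) and ENSMUSG00000079620 (Muc4). Whether the counting used the strand is not stated in the sources used here, so reads from the overlap of Muc4 and Muc20 may have been counted for either gene or for neither.

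The 250 bases before the RefSeq start were available for 7 members (GRCm38.p6), and those of the 4 abundant members are shown here. Each is written 5′ to 3′ in the direction of transcription, with the last base next to the start in the promoter table, and capitals mark the matches to 7 short motifs searched on both strands.

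Muc2: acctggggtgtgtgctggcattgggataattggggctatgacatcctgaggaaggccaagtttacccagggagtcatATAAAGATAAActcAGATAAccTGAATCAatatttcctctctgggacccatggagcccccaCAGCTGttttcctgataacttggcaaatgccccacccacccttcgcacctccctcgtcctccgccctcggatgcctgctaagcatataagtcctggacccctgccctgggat

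Muc3: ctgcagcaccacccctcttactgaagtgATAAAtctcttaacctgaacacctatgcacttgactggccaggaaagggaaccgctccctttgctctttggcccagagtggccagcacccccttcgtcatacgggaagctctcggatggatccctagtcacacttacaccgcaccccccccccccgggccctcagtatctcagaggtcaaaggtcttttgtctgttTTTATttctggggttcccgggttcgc

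Muc13: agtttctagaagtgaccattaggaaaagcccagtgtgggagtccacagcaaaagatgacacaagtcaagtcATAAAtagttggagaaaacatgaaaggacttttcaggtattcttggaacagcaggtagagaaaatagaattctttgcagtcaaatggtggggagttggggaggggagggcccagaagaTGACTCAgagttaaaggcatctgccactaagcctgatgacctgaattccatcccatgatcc

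Muc4: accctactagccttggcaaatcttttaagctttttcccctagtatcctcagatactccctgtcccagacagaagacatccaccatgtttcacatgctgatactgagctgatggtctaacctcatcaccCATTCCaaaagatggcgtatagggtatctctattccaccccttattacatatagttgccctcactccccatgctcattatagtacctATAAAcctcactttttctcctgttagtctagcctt

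These windows are chr7:141690090-141690339 (plus strand) for Muc2, chr5:137166047-137166296 (minus strand, with its 2 lowest positions inside the RefSeq gene span, which ends at 137166048) for Muc3, chr16:33793787-33794036 (plus strand) for Muc13 and chr16:32735636-32735885 (plus strand) for Muc4. The motifs were the AP-1 site TGANTCA, bound by FOS and JUN factors downstream of ERK, the ETS core CCGGAA, the GATA site AGATAA, the CDX core TTTAT, the E-box CAGCTG bound by ATOH1, the TEAD site GGAATG and the FOXA core TGTTTA. Over 32536 RefSeq promoter windows of the same length, 6.73% held the AP-1 site, 12.1% the ETS core, 9.97% the GATA site, 37.2% the CDX core, 13.1% the E-box, 12.6% the TEAD site and 12% the FOXA core. The Muc2 window held 1 AP-1 site starting 151 bases before the start, 2 GATA sites at 169 and 159 bases, 2 CDX cores at 173 and 167 bases, both of which overlap the first GATA site, and 1 E-box at 112 bases. The Muc13 window held 1 AP-1 site at 61 bases and 1 CDX core at 179 bases. The Muc3 window held 2 CDX cores at 222 and 26 bases, and that of Muc4 held 1 CDX core at 35 bases and 1 TEAD site at 122 bases. AP-1 sites were thus among the matches of Muc2 and Muc13 and not among those of Muc3 and Muc4. A match is a run of letters and not a measured binding site, and a part of these motifs in the responses was not tested.

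In off organoids 4 of the 9 mucins made up nearly the whole mucin pool. Expressed per kb of exon, the order by the median of the 6 COL off libraries was Muc13 (179.0 CPM per kb), Muc3 (95.4), Muc2 (38.1) and Muc4 (4.05), and in the 6 SI off libraries it was Muc13 (164.0), Muc3 (25.0), Muc4 (1.72) and Muc2 (1.39). The membrane mucins Muc13 and Muc3 were thus ahead of the gel-forming Muc2 in both tissues on this scale. Without the correction for length, Muc2 ranked above Muc3 in COL (271.0 against 185.0 CPM). The length correction rests on the annotated exons, which are short for Muc3 (1943 bases) and carry a tag for a fragmented locus for Muc2 (7127 bases), so that these orders depend on the gene models. The remaining 5 members had medians of at most 0.119 CPM per kb in COL off and 0.0605 CPM per kb in SI off libraries.

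**Figure D1:**
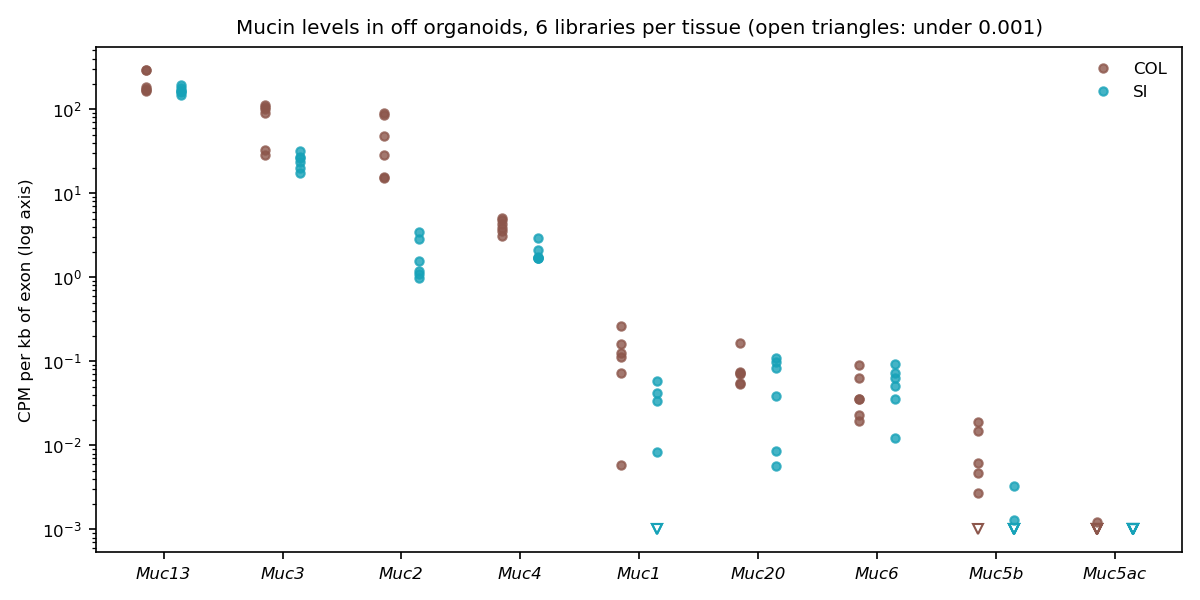
Level of each mucin gene in off organoids, in CPM per kb of merged exon on a log axis, with a point for each of the 6 COL and 6 SI off libraries and open triangles for values under 0.001. Muc13 lies between 148.0 and 293.0 in every library, Muc2 between 15.3 and 90.7 in COL and between 0.981 and 3.46 in SI, and Muc5ac reaches 0.00123 in 1 COL library.

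All 9 members together took 0.0530% to 0.235% of the counts of a library. Of these mucin counts, Muc2, Muc3 and Muc13 provided 92.9% to 99.7%. The mucin share was 0.0842% in COL BRAF off and 0.177% in COL BRAF on, and 0.126% and 0.215% in COL BRAFp53 off and on (means of 2 libraries). In SI it went from 0.0567% to 0.178% in BRAF and from 0.0584% to 0.129% in BRAFp53. In all 4 of these pairs both on libraries were above both off libraries, whereas in COL p53 both on libraries were below both off libraries (means of 0.184% and 0.196%) and in SI p53 they overlapped (0.0557% and 0.0549%). The gel-forming members took 0.0130% of all counts off and 0.0535% on in COL BRAF, and 0.00228% and 0.00939% in SI BRAF.

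When off organoids of the tissues were compared over 3 cultures each, 3 of the 7 members tested were higher in COL and 0 were lower, against 29.6% of 17789 genes called in either direction. Muc2 was 26.1-fold higher in COL (log2 4.70, SE 0.76, edgeR adjusted p = 0.0057), with 109.2 to 646.1 CPM in the 6 COL off libraries and 6.99 to 24.6 CPM in the 6 SI ones. With 1 culture left out its log2 difference lay between 3.84 and 5.31 and stayed called. Muc4, a membrane mucin that can bind the receptor ERBB2, was 2.13-fold higher (log2 1.09, SE 0.21, edgeR adjusted p = 0.0101), with 36.9 to 60.2 CPM in COL and 19.8 to 34.4 CPM in SI. For neither gene did the libraries of the tissues overlap. The difference of Muc4 was 0.99 on the log2 scale, with an edgeR adjusted p of 0.0515, when the SI p53 culture was left out. Muc3 was 3.28-fold higher (log2 1.71, SE 0.45, edgeR adjusted p = 0.0295), with 55.7 to 220.9 CPM in COL overlapping 33.6 to 61.8 CPM in SI, with the COL BRAF culture at the SI level. This call was lost when any culture other than COL BRAF was left out and with the genotype as a block. Muc13 was at 502.8 to 890.4 CPM in COL and 448.7 to 586.7 CPM in SI, a difference of 0.37 on the log2 scale (SE 0.24) that edgeR did not call (adjusted p = 0.278).

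Off levels also varied between cultures of the same tissue. In COL, off Muc2 was 110.9 ± 2.4 CPM (SD, n = 2) in the BRAF culture, 271.4 ± 96.6 CPM in BRAFp53 and 626.9 ± 27.2 CPM in p53. Off Muc3 followed the same order, at 59.7 ± 5.61, 185.4 ± 12.8 and 214.2 ± 9.41 CPM. In SI, the BRAF culture had 22.6 ± 2.84 CPM of Muc2, above 9.48 ± 2.43 CPM in BRAFp53 and 7.77 ± 1.10 CPM in p53. A fold change on induction therefore started from a different level in each culture, and the COL BRAF culture, which also expressed Gata4, had the lowest off levels of Muc2 and Muc3 in COL.

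On induction, the gel-forming Muc2 and the membrane mucin Muc3 were called higher in BRAF and BRAFp53 organoids of both tissues, and no mucin was called in p53 organoids. In COL BRAF, 3 of the 8 members tested were called higher (Muc2, Muc3, Muc4) and 0 lower, against 10.3% and 9.61% of 18972 genes. The count in COL BRAFp53 was 3 of 8 higher (Muc2, Muc3, Muc13) and 0 lower, against 9.95% and 7.76%. In SI BRAF, 3 of 6 were higher (Muc2, Muc3, Muc13) and 1 was lower (Muc4), against 17.5% and 14.2% of 16856 genes, and in SI BRAFp53 3 of 6 were higher (Muc2, Muc3, Muc13) and 0 lower, against 6.98% and 4.53%. The median log2 fold change of the tested members was 0.26, 0.21, 1.78 and 0.65 in these comparisons, against -0.01, -0.04, -0.06 and -0.03 over all genes. With p53 alone edgeR called 0 of 8 members in COL, where 0.142% of genes were called, and 0 of 6 in SI, where 0.0% were called. At an unadjusted p under 0.05 the numbers of members were 1 (Muc4, lower in COL) and 0, and DESeq2 and limma-voom called 0 in both. These shares describe few genes that were chosen by name. Over all genes tested, the on libraries stood entirely above the off libraries for 29.5% in COL BRAF, 27.5% in COL BRAFp53, 32.1% in SI BRAF and 29.0% in SI BRAFp53, and entirely below for 30.6% in SI BRAF, so a lack of overlap between pairs of libraries is common.

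**Figure D2:**
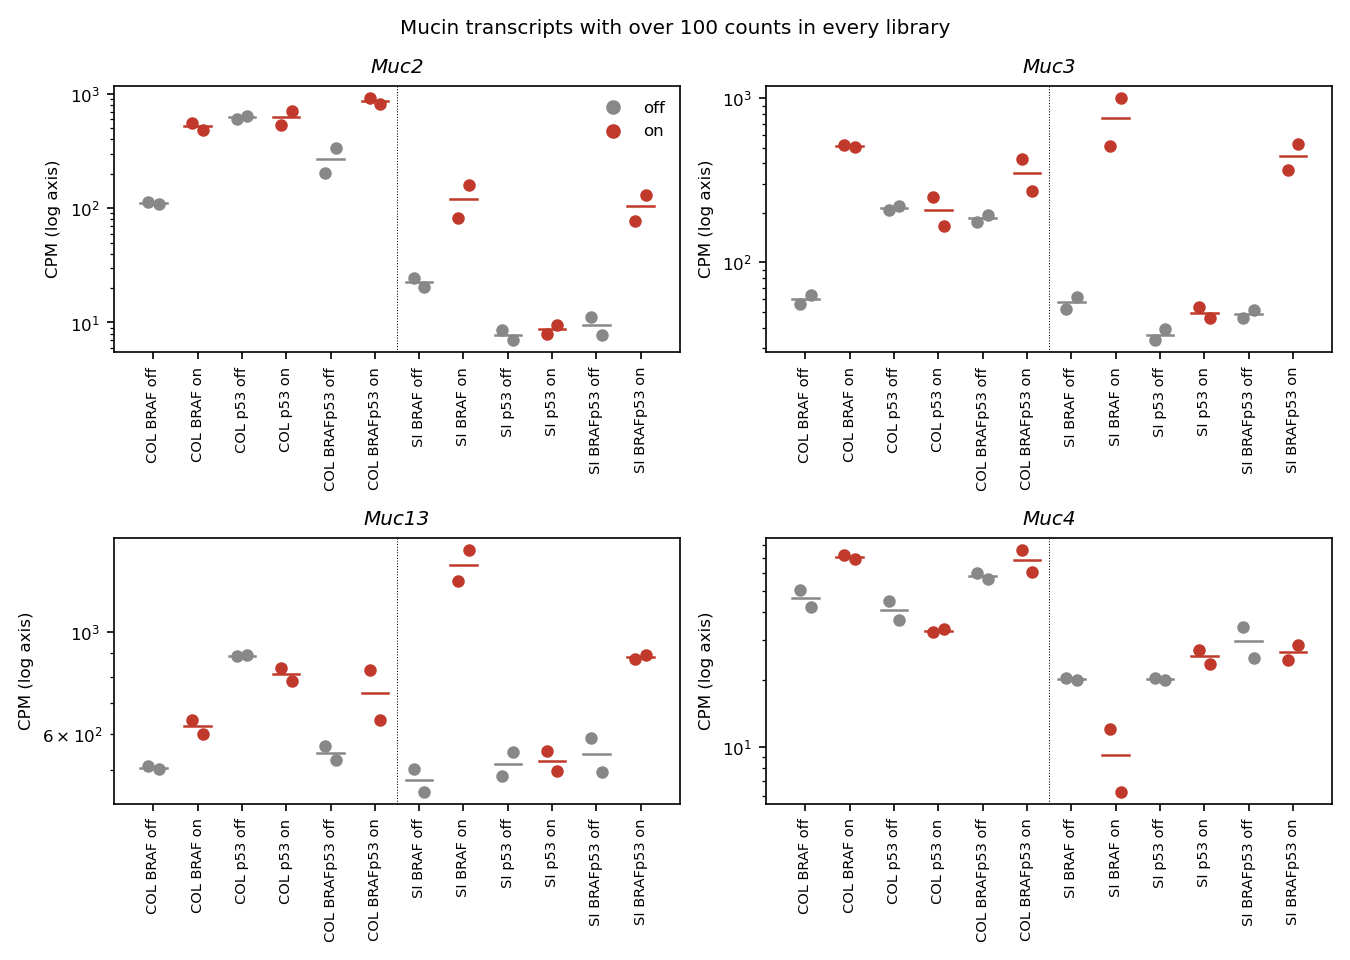
Level of Muc2, Muc3, Muc13 and Muc4 in each library, in CPM on a log axis, for the 12 groups of tissue, genotype and state, with a point per library (grey off, red on) and a bar at the mean of the 2 libraries. The on points of Muc2 and Muc3 lie above the off points in all 4 groups with the BRAF allele, and Muc4 falls to 6.29 and 12.02 CPM in SI BRAF on.

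Muc2 is the polymer that gives intestinal mucus its gel. In COL BRAF it was at 112.6 and 109.2 CPM in the off libraries and at 552.3 and 486.1 CPM in the on libraries, 4.67-fold higher (log2 2.22, SE 0.21, edgeR adjusted p = 4.13e-05). In COL BRAFp53 it was at 203.1 and 339.7 CPM off and at 919.8 and 811.8 CPM on, 3.19-fold higher (log2 1.67, SE 0.20, edgeR adjusted p = 0.000288). The groups did not overlap in either culture, and the on level of COL BRAFp53 was the highest of the 12 groups, apart from the next. In COL p53 it was at 607.7 and 646.1 CPM off and at 538.1 and 710.7 CPM on, which overlap (log2 -0.03, SE 0.20, edgeR adjusted p = 0.996). Both COL p53 off libraries thus had more Muc2 than both COL BRAF on libraries, without induction.

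In SI the Muc2 levels were lower than in COL organoids of the same genotype and state. SI BRAF had 24.6 and 20.6 CPM off and 81.6 and 158.6 CPM on, 5.13-fold higher (log2 2.36, SE 0.30, edgeR adjusted p = 6.97e-05), and without the library that stood apart the log2 difference was 2.77 (SE 0.26, edgeR adjusted p = 4.33e-06). Without the other on library, replicate 2, it was 1.82 (SE 0.27) and still called. SI BRAFp53 had 11.2 and 7.77 CPM off and 77.7 and 131.3 CPM on, 10.8-fold higher (log2 3.43, SE 0.32, edgeR adjusted p = 1.64e-05). On and off libraries did not overlap in either culture, and the on levels of both cultures overlapped with each other and with the off level of COL BRAF. SI p53 had 8.55 and 6.99 CPM off and 7.86 and 9.58 CPM on (log2 0.14, SE 0.31, edgeR adjusted p = 1.0). The Muc2 response did not differ between BRAFp53 and BRAF beyond the threshold, neither in COL (log2 -0.55, SE 0.28, edgeR adjusted p = 0.316) nor in SI (log2 1.07, SE 0.42, edgeR adjusted p = 0.144). In SI that difference was 1.63 (SE 0.37) and called when SI BRAF on replicate 2 was left out, 1.08 and called without a filter on low counts, and 0.67 (SE 0.36, edgeR adjusted p = 0.273) without replicate 1.

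The other secreted mucins were close to the limit of detection. Muc5ac, which is typical of the gastric surface, had 1 count in 1 of 24 libraries (COL p53 off) and 0 in the others, so that it was below 3 counts in every group, BRAF-induced ones included. Muc5b had 0 to 20 counts and passed 3 counts in 7 libraries, with its highest group mean in COL BRAFp53 off (0.253 ± 0.0445 CPM), and it was tested in COL, where it was not called. Muc6, the mucin of gastric glands, was detected in all 24 libraries at 5 to 65 counts (0.116 to 1.09 CPM), and edgeR called it in none of the 6 comparisons of on with off. Its levels in SI BRAFp53, 0.332 and 0.600 CPM off and 0.391 and 1.09 CPM on, overlapped.

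Among the membrane mucins, Muc3 responded most. In COL BRAF it went from 55.7 and 63.6 CPM to 519.9 and 501.3 CPM, 8.53-fold higher (log2 3.09, SE 0.23, edgeR adjusted p = 1.1e-05). In SI BRAF it went from 52.3 and 61.8 CPM to 507.4 and 999.6 CPM, 12.7-fold higher (log2 3.67, SE 0.27, edgeR adjusted p = 6.88e-07), and without the library that stood apart the log2 difference was 4.09 (SE 0.19, edgeR adjusted p = 1.69e-08), against 3.12 (SE 0.19), also called, without on replicate 2. In SI BRAFp53 it went from 46.0 and 51.3 CPM to 366.7 and 522.7 CPM, 8.92-fold higher (log2 3.16, SE 0.27, edgeR adjusted p = 6.87e-06). In each of these 3 cultures the lowest on library was far above the highest off library. In COL BRAFp53 it went from 176.4 and 194.5 CPM to 426.0 and 270.8 CPM, 1.88-fold higher (log2 0.91, SE 0.21, edgeR adjusted p = 0.0122), a call that was lost without on replicate 1 (log2 0.55, edgeR adjusted p = 0.107) and without off replicate 1 (edgeR adjusted p = 0.0701).

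The Muc3 response in COL BRAFp53 was smaller than that in COL BRAF by 2.18 on the log2 scale (SE 0.30, edgeR adjusted p = 0.0326), and 0.907% of all genes were called in this comparison. The off level was higher in BRAFp53 than in BRAF (185.4 ± 12.8 against 59.7 ± 5.61 CPM) and the on level was lower (348.4 ± 109.7 against 510.6 ± 13.2 CPM), and neither pair of groups overlapped. Leaving out 1 library moved it between -2.53 and -1.88, and the adjusted p rose to at most 0.13, above the threshold for 4 of the 8 libraries (both COL BRAF on, COL BRAF off replicate 1 and COL BRAFp53 off replicate 2). In SI the responses of Muc3 in BRAFp53 and BRAF differed by -0.51 (SE 0.35, edgeR adjusted p = 0.417), by -0.92 (SE 0.25, edgeR adjusted p = 0.0286) without SI BRAF on replicate 1 and by 0.057, not called, without SI BRAF on replicate 2. With p53 alone Muc3 had log2 values of -0.06 (SE 0.21) in COL and 0.43 (SE 0.25) in SI, neither of them called.

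The annotations differ on where Muc3 starts. The RefSeq model runs from 137134924 to 137166048 on chromosome 5, and the window printed above for Muc3 is that of the RefSeq start, 16.7 kb upstream of the GENCODE model. Gm3054, annotated in GENCODE as a lincRNA with 265 exon bases (137154029 to 137166070, minus strand), overlaps the upstream part of the RefSeq span, reaches slightly beyond its upstream end and lies 4.7 kb from the GENCODE model, on the same strand. Of 16307 genes, it had the level most like that of Muc3 over the 24 libraries, with r = 0.988 on log2 CPM centred within tissue. Gm3054 was at 1.26 ± 0.115 CPM in COL BRAF off and 12.8 ± 0.65 CPM on (log2 3.34, SE 0.29, edgeR adjusted p = 2.63e-05), and it rose by 3.51 in SI BRAF, 2.94 in SI BRAFp53 and 1.43 in COL BRAFp53. For both genes the response was largest in SI BRAF and smallest in COL BRAFp53 among these 4. Without SI BRAF on replicate 2, Muc3 rose there by 3.12, below the 3.16 of SI BRAFp53. For Gm3054 the values of SI BRAF (SE 0.39) and COL BRAF (SE 0.29) lay within an SE of each other. Whether the 2 gene models are parts of 1 transcript was not tested. Muc3a, a separate gene on the same chromosome (137208813 to 137212389), shared no run of 50 exon bases with Muc3 and was called higher in COL BRAF (29.4 ± 1.27 to 50 ± 0.498 CPM, log2 0.76, edgeR adjusted p = 0.00638) and SI BRAFp53 (3.70 ± 0.299 to 15.1 ± 3.60 CPM, log2 1.995, edgeR adjusted p = 4.19e-05).

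Muc13, the most abundant mucin in off organoids of both tissues, is a membrane mucin of the apical surface. In SI BRAF it went from 502.0 and 448.7 CPM to 1295.0 and 1514.0 CPM, 2.86-fold higher (log2 1.52, SE 0.11, edgeR adjusted p = 8.01e-07), and without the library that stood apart the log2 difference was 1.63 (SE 0.13), against 1.41 (SE 0.13) without on replicate 2. In SI BRAFp53 it went from 586.7 and 495.7 CPM to 876.1 and 892.1 CPM, 1.59-fold higher (log2 0.67, SE 0.11, edgeR adjusted p = 0.00158). The response was thus smaller in SI BRAFp53 than in SI BRAF, by 0.85 on the log2 scale (log2 -0.85, SE 0.16, edgeR adjusted p = 0.00591), a comparison in which 8.2% of all genes were called. In COL BRAFp53 it went from 563.6 and 525.2 CPM to 825.7 and 644.9 CPM (log2 0.44, SE 0.12, edgeR adjusted p = 0.022), and the call was lost in 4 alternatives, among them leaving out on replicate 1 (log2 0.25, edgeR adjusted p = 0.181), off replicate 1 (edgeR adjusted p = 0.0563) or off replicate 2 (edgeR adjusted p = 0.115). In COL BRAF it was at 510.5 and 502.8 CPM off and at 644.6 and 601.1 CPM on (log2 0.29, SE 0.12, edgeR adjusted p = 0.0957), and the off libraries were both below the on libraries. A fit of these 4 libraries alone called it (log2 0.31, edgeR adjusted p = 0.0211). With p53 alone it had log2 values of -0.15 (SE 0.12) in COL and 0.00 (SE 0.11) in SI, neither of them called.

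Muc4 was the member whose response turned with the tissue in BRAF organoids. In BRAFp53 organoids its response did not differ between COL and SI beyond the threshold (log2 0.40, edgeR adjusted p = 0.54). In COL BRAF it went from 50.3 and 42.3 CPM to 72.3 and 69.4 CPM, 1.53-fold higher (log2 0.61, SE 0.14, edgeR adjusted p = 0.0106). In SI BRAF it fell from 20.2 and 19.8 CPM to 12.02 and 6.29 CPM, 0.447 of the off level (log2 -1.16, SE 0.25, edgeR adjusted p = 0.00285), and without the library that stood apart the log2 difference was -1.71 (SE 0.23, edgeR adjusted p = 7.51e-05). Without on replicate 2 it was -0.77 (SE 0.21, edgeR adjusted p = 0.0176). On and off libraries did not overlap in either tissue, and the changes were opposite in sign. The COL call was lost without on replicate 1 (log2 0.57, edgeR adjusted p = 0.0746) and without off replicate 2 (log2 0.50, edgeR adjusted p = 0.105), while the SI call was kept in all 11 alternatives. In BRAFp53 organoids Muc4 had log2 values of 0.24 (SE 0.14, edgeR adjusted p = 0.287) in COL and -0.20 (SE 0.24, edgeR adjusted p = 0.681) in SI, and in SI this response differed from that of BRAF by 0.97 (SE 0.34, edgeR adjusted p = 0.106). This difference was called by DESeq2 (adjusted p = 0.033), by edgeR without a filter on low counts (adjusted p = 0.00257) and by edgeR without SI BRAF on replicate 1 (log2 1.53, SE 0.27, adjusted p = 0.00345). It was 0.59 and not called without SI BRAF on replicate 2. In p53 organoids the values were -0.33 (SE 0.14) in COL and 0.32 (SE 0.24) in SI, neither of them called.

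Muc1 and Muc20 were present at a trace. Muc1, a membrane mucin of many glandular epithelia, had 0 to 52 counts and passed 3 counts in 15 libraries, 11 of 12 in COL, and was at 0 in all 4 libraries of SI BRAF. Muc20 had 1 to 47 counts and passed 3 counts in 21 libraries. Its count may include reads from the exon bases that overlap Muc4. In SI BRAF, where Muc4 fell, it had 1 and 2 counts off and 9 and 2 counts on and was not called (edgeR adjusted p = 0.189). Muc1 was tested in COL and Muc20 in both tissues, and neither was called in a comparison of on with off. At these counts a change was not detectable unless it was large.

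**Figure D3:**
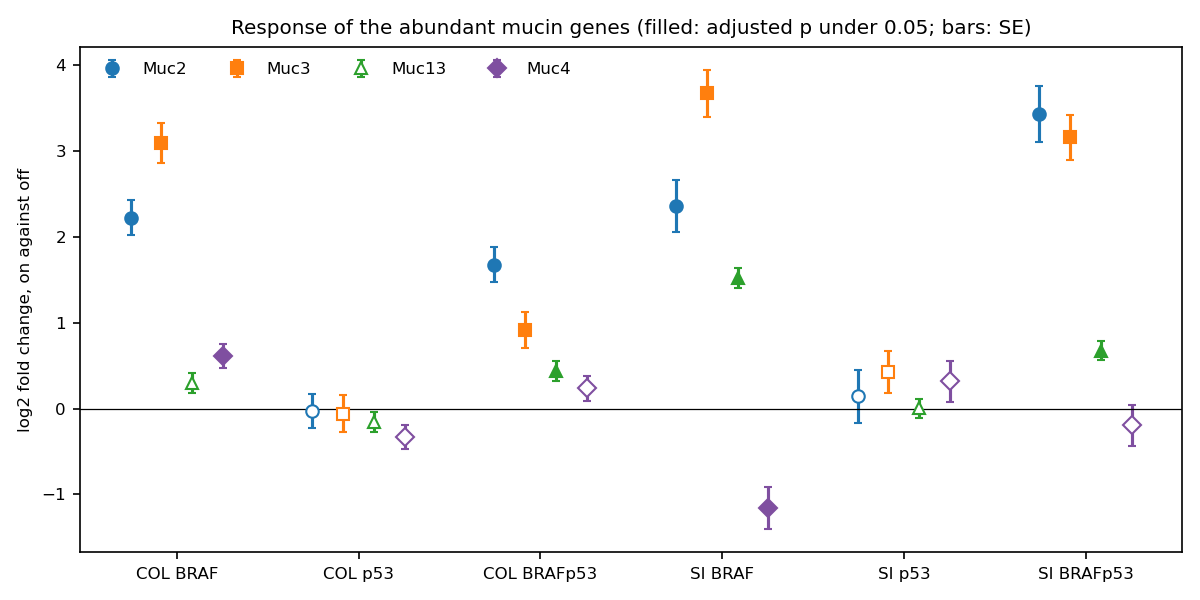
Fold change on the log2 scale between on and off organoids for Muc2, Muc3, Muc13 and Muc4 in the 6 combinations of tissue and genotype, with bars for the SE of the edgeR fit and filled symbols for adjusted p under 0.05. Muc2 and Muc3 are filled in all 4 combinations with the BRAF allele, between 0.91 and 3.67, Muc4 is filled above 0 in COL BRAF and below 0 in SI BRAF, and no symbol is filled for p53 alone.

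The responses of the tissues were compared directly in a fit of all 24 libraries. For BRAF, 2 of 8 members differed, with 10.7% of 19673 genes called. The response of Muc4 was higher in COL by 1.73 (SE 0.30, edgeR adjusted p = 0.000937) and that of Muc13 was lower in COL (log2 -1.27, SE 0.17, edgeR adjusted p = 9.31e-05). Muc2 (log2 -0.18, SE 0.40, edgeR adjusted p = 0.878) and Muc3 (log2 -0.63, SE 0.36, edgeR adjusted p = 0.329) were not called, and Muc3 was called without a filter on low counts (log2 -0.61, edgeR adjusted p = 0.0158) and without SI BRAF on replicate 1 (log2 -1.03, SE 0.32, edgeR adjusted p = 0.0499). Without SI BRAF on replicate 2 the Muc3 difference was -0.054 and not called. For BRAFp53, 2 of 8 members differed, with 3.52% of genes called. Both were lower in COL, Muc2 (log2 -1.79, SE 0.41, edgeR adjusted p = 0.019) and Muc3 (log2 -2.28, SE 0.37, edgeR adjusted p = 0.00196). Muc2 passed the threshold neither when 1 of 4 BRAFp53 libraries (replicate 2 of either state and tissue) was left out, at -1.70 to -1.36, nor with the replicate block (log2 -1.71, edgeR adjusted p = 0.0666). For p53, 0 of 8 members differed by edgeR, DESeq2 or limma-voom, with 0.117% of genes called and 1 member, Muc4, at an unadjusted p under 0.05.

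The order of the 12 groups differed between the members. For Muc2 all COL groups except BRAF off stood above all SI groups, and the SI BRAF on and SI BRAFp53 on groups (120.1 ± 54.5 and 104.5 ± 37.9 CPM) were in the range of COL BRAF off. For Muc3 the 4 groups with the highest means were the induced BRAF and BRAFp53 groups of both tissues, from 753.5 ± 348.0 CPM in SI BRAF on to 348.4 ± 109.7 CPM in COL BRAFp53 on, and neighbours among them overlapped. For Muc13 the highest group, SI BRAF on, was at 1404.0 ± 154.9 CPM and apart from the next, COL p53 off at 887.9 ± 3.54 CPM. For Muc4 all COL groups were above or overlapping with the highest SI group, SI BRAFp53 off at 29.7 ± 6.68 CPM, and SI BRAF on was lowest at 9.16 ± 4.05 CPM.

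The members' levels were also compared with each other and with all other genes, as a description over libraries that share culture and induction. In SI, r over 12 libraries was 0.961 for Muc2 and Muc3, 0.947 for Muc3 and Muc13 and 0.865 for Muc2 and Muc13, whereas Muc4 had -0.524, -0.573 and -0.668 with these genes. In COL, r was 0.798 for Muc2 and Muc3 and 0.784 for Muc2 and Muc13, and 0.453 for Muc3 and Muc13, while Muc4 had 0.078 with Muc2, 0.487 with Muc3 and -0.352 with Muc13. Over 24 libraries centred within tissue, the genes most like Muc2 were Mboat1 (r = 0.969), S100a6 (0.963) and Anxa5 (0.953). For Muc13 they were Abcc5 (0.974), Sgk2 (0.969) and Aldh3a2 (0.965), and after Gm3054 those most like Muc3 were Mxd1 (0.965) and Cxcl16 (0.964). Muc4 had lower values, with Stk39 (0.84), Notch2 (0.826) and Zdhhc2 (0.793). With Spearman's rank correlation, Mboat1 and Gm3054 stayed first, and Aldh3a2 stayed among the 3 genes closest to Muc13. The other like genes named here were no longer among the closest 3. For Muc4 these became Polr3d (0.824), Slc9a3r2 (0.79) and Pdx1 (0.788).

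Among genes that pack and secrete mucus, more were called higher than lower in each comparison in which Muc2 was higher, and their part in the Muc2 result was not tested. Over all genes, 10.3% were called higher and 9.61% lower in COL BRAF, 9.95% and 7.76% in COL BRAFp53, 17.5% and 14.2% in SI BRAF and 6.98% and 4.53% in SI BRAFp53. Of 12 listed genes, edgeR called 8 higher and 1 lower in COL BRAF, 7 higher and 1 lower in COL BRAFp53, 4 higher and 0 lower of 10 tested in SI BRAF and 9 higher and 0 lower of 10 in SI BRAFp53, with medians of 1.05, 0.95, 0.63 and 1.69 on the log2 scale. With p53 alone 0 were called in either tissue. Zg16, a lectin of goblet cell granules, rose from 36.4 ± 1.90 to 142.0 ± 30.9 CPM in COL BRAF (log2 1.96, SE 0.29), and by 1.82, 3.23 and 4.19 in COL BRAFp53, SI BRAF and SI BRAFp53. Clca1, a metalloprotease secreted into mucus, rose by 1.59, 1.88, 2.74 and 3.49 in the same order. Agr2, a disulfide isomerase needed for folding of Muc2, rose by 0.75, 1.43, 1.16 and 2.45. Spink4 rose in COL BRAF, COL BRAFp53 and SI BRAFp53 (by 1.14, 0.95 and 1.26), while Tff3, the trefoil peptide of goblet cells, rose in SI BRAFp53 (log2 1.16, SE 0.12) and stood at 0.45 (SE 0.16, edgeR adjusted p = 0.0685) in COL BRAF, 0.18 in COL BRAFp53 and 0.20 in SI BRAF. The genes called lower were Pdia5, a disulfide isomerase, in COL BRAF (log2 -0.60, SE 0.12) and Tgm3, a transglutaminase, in COL BRAFp53 (0.876 ± 0.617 to 0.152 ± 0.0623 CPM). Tgm3 counted among the 8 higher in COL BRAF on 0.0492 ± 0.0157 CPM in on libraries against 0 in off libraries, which is about the limit of detection.

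**Figure D4:**
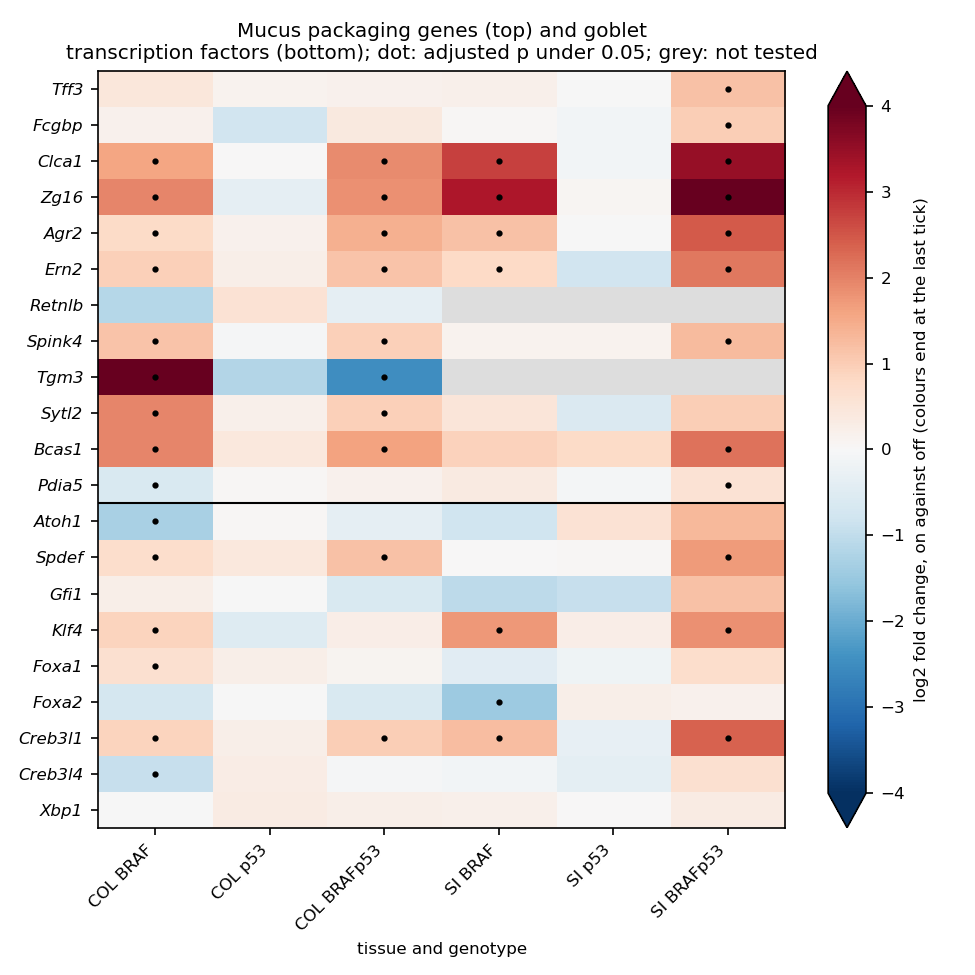
Fold change on the log2 scale between on and off organoids, as colour, for 12 genes of mucus packaging and secretion (above the line) and 9 goblet cell transcription factors (below it) in the 6 combinations of tissue and genotype, with dots for adjusted p under 0.05 and grey for genes not tested. Zg16, Clca1, Agr2, Ern2 and Creb3l1 carry a dot in all 4 combinations with the BRAF allele, and no gene does with p53 alone.

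Some transcription factors of the goblet lineage were called in each culture with the BRAF allele. Of 9 factors, 4 were higher and 2 lower in COL BRAF, 2 higher in COL BRAFp53, 2 higher and 1 lower in SI BRAF and 3 higher in SI BRAFp53, with 0 lower in either BRAFp53 culture. In SI BRAF these counts are near the 17.5% and 14.2% of all genes called higher and lower. The shares of all genes were 10.3% and 9.61% in COL BRAF, 9.95% and 7.76% in COL BRAFp53 and 6.98% and 4.53% in SI BRAFp53. Creb3l1, which activates genes of the secretory machinery, rose in all 4, by 0.89, 0.98, 1.23 and 2.36. Spdef, which drives goblet cell maturation, rose by 0.69 in COL BRAF, 1.16 in COL BRAFp53 and 1.72 in SI BRAFp53, and was at 0.01 (SE 0.20, edgeR adjusted p = 0.979) in SI BRAF, where Muc2 rose 5.13-fold. Atoh1, which commits progenitors to the secretory lineage, fell in COL BRAF from 13.1 ± 1.27 to 5.35 ± 0.552 CPM (log2 -1.29, SE 0.18, edgeR adjusted p = 0.000487), where Muc2 rose 4.67-fold, and was not called elsewhere. Klf4, a factor of goblet cell differentiation, rose in COL BRAF, SI BRAF and SI BRAFp53 (by 0.90, 1.75 and 1.83), and Foxa2 fell in SI BRAF (log2 -1.44, SE 0.34). In COL BRAF, Creb3l4 was also called lower (log2 -0.912, SE 0.235, edgeR adjusted p = 0.0173) and Foxa1 higher (log2 0.651, SE 0.142, edgeR adjusted p = 0.00721). The summed level of the packaging genes was 1670.0 to 1810.0 CPM in COL BRAF off and 2790.0 to 3040.0 CPM on, 1490.0 to 1730.0 and 3120.0 to 3170.0 CPM in COL BRAFp53, 1010.0 to 1060.0 and 1580.0 to 1780.0 CPM in SI BRAF and 646.0 to 681.0 and 1980.0 to 2190.0 CPM in SI BRAFp53. In bulk RNA a change in the number of goblet cells and a change in RNA per cell cannot be told apart.

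Markers of other cell types also moved. In SI BRAF, 8 of 10 tested enterocyte markers were higher and their sum was 10600.0 to 14000.0 CPM off and 44800.0 to 50300.0 CPM on (17.5% of all genes were higher), while 6 of 9 tested Paneth cell markers were lower (14.2% of all genes) and summed to 644.0 to 658.0 CPM off and 215.0 to 246.0 CPM on. In SI BRAFp53, 4 of 10 tested enterocyte markers were higher and 3 lower, and 4 of 9 Paneth cell markers were higher and 0 lower, beside 6.98% higher and 4.53% lower over all genes. In COL BRAF, 4 of 11 tested enterocyte markers were higher and 2 lower, and 2 of 10 Paneth cell markers were higher and 0 lower, beside 10.3% and 9.61% of all genes. In COL BRAFp53 the enterocyte counts were 3 higher and 2 lower of 11, beside 9.95% and 7.76% of all genes, and 2 of 10 Paneth cell markers were higher and 2 lower (Defa17 by -1.81 and Defa22 by -1.02 on the log2 scale). The stromal and immune markers summed to 1.96 to 2.43 CPM in COL BRAF off and 7.68 to 10.2 CPM on, to 2.11 to 3.31 CPM in SI BRAFp53 off and 8.07 to 8.33 CPM on, and to 4.53 to 4.57 CPM in COL BRAFp53 off and 6.68 to 7.79 CPM on, with Vim called higher in all 3. The part of these cell types in the levels of Muc3 and Muc13, which enterocytes express, was not tested. In a fit of SI BRAF without on replicate 1, an alternative chosen after the data were seen, 8 enterocyte markers were higher and 1 lower of 10, 6 Paneth cell markers were lower of 10, and the counts for mucus packaging (4 higher of 10), goblet factors (2 higher and 1 lower of 9) and O-glycosylation (13 higher and 2 lower of 35) did not change.

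Among enzymes that build mucin O-glycans, more were called higher than lower in each culture with the BRAF allele. Of 35 tested genes, 12 were higher and 4 lower in COL BRAF, 11 and 3 in COL BRAFp53, 13 and 2 in SI BRAF and 13 and 0 in SI BRAFp53, with medians of 0.46, 0.37, 0.69 and 0.56, and 0 were called with p53 alone in either tissue. Over all genes 10.3% were higher and 9.61% lower in COL BRAF, 9.95% and 7.76% in COL BRAFp53, 17.5% and 14.2% in SI BRAF and 6.98% and 4.53% in SI BRAFp53, so that the counts called lower are near or below the share of all genes. Gcnt3, the core 2 and core 4 branching enzyme of mucins, was called higher in all 4 (by 0.43, 0.76, 1.58 and 1.58), as was B3gnt3, which extends core 1 chains (by 0.95, 1.25, 1.04 and 0.57). B3galt5, a galactosyltransferase for type 1 chains, rose in COL from 0.625 ± 0.444 to 9.53 ± 4.17 CPM in BRAF and from 1.74 ± 1.46 to 15 ± 5.85 CPM in BRAFp53, and had group means of at most 1.0 CPM in SI. Chst4, a sulfotransferase for N-acetylglucosamine, rose by 2.79 in SI BRAF, 1.19 in SI BRAFp53 and 0.72 in COL BRAFp53. A4gnt, which adds the terminal sugar typical of gastric gland mucin, fell in COL BRAF from 4.62 ± 1.40 to 0.687 ± 0.243 CPM (log2 -2.73, SE 0.37) and in COL BRAFp53 by 1.17. St6galnac2, of the same list, was called lower in COL BRAF (log2 -0.74, SE 0.11), COL BRAFp53 (log2 -1.51, SE 0.11) and SI BRAF (log2 -0.64, SE 0.13). In SI BRAFp53 it was not called (log2 -0.26, SE 0.13). Gcnt3 and B3gnt3 were picked for naming after their values were seen, because they were called in all 4, and St6galnac2 because it went the other way.

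Single gastric markers were called higher. The list held 10 of them, of which the filter on low counts left 5 in COL and 6 in SI. Called higher were 3 in COL BRAF, 4 in COL BRAFp53 and 1 in SI BRAF, beside 10.3%, 9.95% and 17.5% of all genes. In SI BRAFp53 the genes called higher were Anxa10, Vsig1 and Ctse, of which Vsig1 and Ctse passed the filter only through the on libraries of that culture, so that their count is not set against the share of all genes. Called lower was 1, Gkn3, in COL BRAFp53 (4.43 ± 1.55 to 1.43 ± 0.59 CPM), and without SI BRAF on replicate 1 the SI BRAF count was 1 higher and 1 lower of 7. Anxa10, an annexin of gastric epithelium, rose by 3.00 and 2.99 in COL BRAF and COL BRAFp53 and by 4.13 and 5.39 in SI BRAF and SI BRAFp53, reaching 240.0 ± 36.8 CPM in SI BRAFp53. Vsig1, a gastric junction protein, rose in COL BRAF (25.9 ± 4.02 to 55.3 ± 5.85 CPM) and COL BRAFp53 (2.59 ± 0.395 to 19.0 ± 3.65 CPM), and in SI BRAFp53 it was at 0.919 ± 0.0974 CPM on against 0 off. Cldn18, a claudin of gastric tight junctions, rose in COL BRAF (log2 1.93) and COL BRAFp53 (log2 2.65). Ctse, a gastric protease, rose in COL BRAFp53 (log2 1.501, SE 0.41, edgeR adjusted p = 0.0259), and in SI BRAFp53 it was at 2.44 ± 1.33 CPM on against 0 off. In COL BRAF it went from 2.37 ± 0.178 to 5.54 ± 2.04 CPM and was not called (log2 1.222, SE 0.404, edgeR adjusted p = 0.0527). Muc5ac stayed under 3 counts and Muc6 at or under 1.09 CPM in these libraries.

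Of 10 further mucin-type genes listed, 9 were analysed, and the filter on low counts left 5 of them for COL and 4 for SI. In COL BRAF and in COL BRAFp53, 0 were called higher and 1 lower. The counts were 0 and 1 in SI BRAF and 1 and 1 in SI BRAFp53. Of all genes, 10.3% were higher and 9.61% lower in COL BRAF and 9.95% and 7.76% in COL BRAFp53. In SI the shares were 17.5% and 14.2% in BRAF and 6.98% and 4.53% in BRAFp53. Single calls among so few genes are not a result about the list. Podxl, a sialomucin, fell in SI BRAF (11.6 ± 2.56 to 3.32 ± 0.0653 CPM) and SI BRAFp53 (4.14 ± 1.10 to 1.03 ± 0.848 CPM), and Cd164, another sialomucin, fell in COL BRAF (log2 -0.49, SE 0.10, edgeR adjusted p = 0.00463). Ovgp1, the mucin-like oviductin, fell in COL BRAFp53 (2.35 ± 0.489 to 0.435 ± 0.0261 CPM). Mucl3 was called higher in SI BRAFp53, at 2.67 ± 0.268 CPM on against 0.039 ± 0.0278 CPM off, and stood at 4.01 ± 1.37 against 0.181 ± 0.101 CPM in COL BRAF (edgeR adjusted p = 0.0525).

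The neighbours of the responding mucins were read as well, since the secreted mucins share a locus. Of all genes, 10.3% were called higher and 9.61% lower in COL BRAF, and 9.95% and 7.76% in COL BRAFp53. In SI the shares were 17.5% and 14.2% in BRAF and 6.98% and 4.53% in BRAFp53. Single calls among these few neighbours are not a result about the loci. Brsk2 and Rubcn, also neighbours, were called in no comparison of on with off. Ap2a2, which lies 0.4 kb from the chromosome 7 group, and Tollip, 1.7 kb from its other end, were called higher in SI BRAF by 0.94 and 1.38 on the log2 scale, and Ap2a2 in SI BRAFp53 by 0.44. Neither was called in COL, while Chid1, 93.6 kb from the group, was lower in COL BRAF (log2 -0.63, SE 0.15). Next to Muc4 and Muc20, Tnk2 rose in COL BRAF (log2 1.24, SE 0.24) and SI BRAFp53 (log2 0.86, SE 0.26), and Smbd1, 7.3 kb away, fell in COL BRAF from 1.22 ± 0.0181 to 0.188 ± 0.138 CPM and in COL BRAFp53 from 1.99 ± 0.256 to 0.515 ± 0.0352 CPM. Tfrc, 103.1 kb away, was lower in COL BRAF (log2 -0.39, SE 0.10). Next to Muc13, Itgb5, 9.7 kb away, rose in SI BRAF (log2 1.07, SE 0.22), and Heg1, 22.5 kb away, also rose there (log2 0.80, SE 0.26). Slc12a8, 129.9 kb from Muc13, rose in COL BRAFp53 (log2 0.77, SE 0.16) and SI BRAFp53 (log2 0.70, SE 0.16), and Umps, 134.8 kb away, was lower in COL BRAF (log2 -0.66, SE 0.17).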

How the data were processed

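RNA was measured by paired-end sequencing in 24 organoid libraries. Per the labels and the study's methods, the authors trimmed reads with Trimmomatic 0.36, aligned them with STAR 2.5.2b to mm10 (the labels also list mm9) and deposited raw counts per Ensembl gene, 1 table per tissue. Which annotation release was counted against, and whether strand was used, is not given in the sources used here. Of 45706 identifiers, 45143 matched GENCODE M21, which gave symbols, positions and exon lengths.

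Counts were tested with edgeR 4.0.16 (R 4.3.3) by the quasi-likelihood test after TMM scaling and filterByExpr, on the 12 libraries of a tissue. Differences of responses between tissues used all 24 libraries, and off organoids were compared after summing the 2 libraries of a culture. P-values were adjusted by Benjamini-Hochberg over all genes tested, and called means adjusted p under 0.05. The study itself used limma. Levels are CPM with TMM factors over 24 libraries. Likeness of genes was Pearson's r of log2(CPM + 0.5) centred within tissue. The steps were tested on simulated counts. Alternatives were DESeq2 1.42.0 and limma 3.58.1 (voom), other filters, the 4 libraries of a comparison alone, a replicate block and leaving out each library.

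Members, gene lists and tests were chosen with earlier results of these data known. Up to 4 genes per list were to be named by their change, and Atoh1, Cldn18, Ddx3y, Ern2, Fcgbp, Gcnt3, Gkn3, B3gnt3, Mucl3, Ovgp1, Pdia5, Spink4, Tff3, Tgm3 and the neighbours of the mucins were named after their values were seen. Creb3l4, Foxa1 and St6galnac2 were also named after their values were seen. Replicates of a group differed by more than sampling noise (chi-square per degree of freedom 20.5 to 92.5). Muc16 was not analysed here.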

Additional observations from a re-analysis of the deposited data

Results flagged for a closer look

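Of the member responses, 6 differed between genotypes or tissues by the edgeR test of the difference itself. The Muc3 response in COL was smaller in BRAFp53 than in BRAF (log2 -2.18, SE 0.30, adjusted p = 0.0326), and 4 of 8 left-out libraries took it past the threshold. The Muc13 response in SI was smaller in BRAFp53 than in BRAF (log2 -0.85, SE 0.16, adjusted p = 0.00591) and was called whichever of 8 libraries was left out. Between tissues, the BRAF response of Muc4 was higher in COL than in SI (log2 1.73, SE 0.30, adjusted p = 0.000937) and that of Muc13 was lower (log2 -1.27, SE 0.17, adjusted p = 9.31e-05), each called without any 1 of 8 libraries. The BRAFp53 response was lower in COL than in SI for Muc2 (log2 -1.79, SE 0.41, adjusted p = 0.019), which was called without 4 of 8 libraries, and for Muc3 (log2 -2.28, SE 0.37, adjusted p = 0.00196), which was called without any 1 of 8. The tissues also differ in 4-HT dose and day of RNA, and the genotypes in donor culture. SI p53 and SI BRAFp53 also differ in sex from the other cultures, by Xist and Ddx3y, so these cannot be told apart from tissue and genotype.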

How the results depend on the processing

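Of 22 called results on single members, 15 stayed called with the same sign under all alternatives, 24 of 266 alternative values lost the call, and 0 changed sign. Of 65 results not called, 58 stayed so, and 11 of 762 values became called. The number of members called in COL BRAFp53, 3, was 1 to 3 when a library was left out, that of the COL difference between BRAFp53 and BRAF, 1, was 0 to 1, and that of the SI difference, 1, was 1 to 3, with 3 without a filter on low counts and 2 by DESeq2. For the BRAFp53 difference between tissues 2 members became 1 with the replicate block and 1 to 2 with a library left out. In off organoids 3 became 6 when the 12 libraries were not summed, which treats libraries of 1 culture as replicates, and 1 to 3 with a culture left out (1 without SI p53).

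Counts over all genes moved more. COL p53 had 27 called genes, 569 without a filter, 324 by DESeq2, 15 with the replicate block, 14 from its 4 libraries and 0 to 56 with a library left out. SI p53 had 0 by edgeR, with 873 at an unadjusted p under 0.05, and 155 without a filter, 65 by DESeq2, 1 by limma-voom and 17 from its 4 libraries. The COL difference between BRAFp53 and BRAF had 0.907% of genes called, against 1312 genes without a filter, 391 with at least 10 counts, 1364 by DESeq2, 17 with the replicate block and 0 to 279 with a library left out. The SI difference had 1383, against 2108 by DESeq2 and 597 to 2128 with a library left out. With a library left out the counts were 1961 to 2489 of 3776 in COL BRAF, 1699 to 2399 of 3360 in COL BRAFp53, 3573 to 5343 of 5345 in SI BRAF and 887 to 1333 of 1941 in SI BRAFp53. Between tissues they were 1202 to 1833 of 2108 for BRAF, 3 to 46 of 23 for p53 (488 without a filter, 39 with at least 10 counts, 162 by DESeq2) and 235 to 723 of 693 for BRAFp53 (1548 without a filter, 1580 by DESeq2). Off organoids had 5270, against 3475 with genotype as a block, 11081 not summed and 2479 to 5381 with a culture left out. The causes were not tested.

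Replicate numbers did not pair the libraries, since deviations of same-numbered libraries from their group means had r between -0.09 and 0.123, above 0.1 in COL p53 alone. Besides the BRAFp53 difference between tissues and, in off organoids, Muc3 with genotype as a block, no member lost its call under a block. With 2 libraries per group of 1 culture each, and members such as Muc1, Muc5b and Muc20 at few counts, small changes were not detectable.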
